A study of Mus musculus with 23 samples.

Results

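The response to the leukaemic fusion protein RUNX1-ETO was compared between haemogenic endothelium (HE) and myeloid progenitors, as the difference between the change on induction in myeloid progenitors and the change on induction in HE. This interaction term rests on 12 of the 23 arrays of the series, with 3 arrays in each of 4 groups, and was tested in 15202 genes. All cells came from a mouse embryonic stem (ES) cell line, labelled C57BL/6, that carries human RUNX1-ETO behind a tetracycline-responsive promoter on a background with intact RUNX1, and induction was with 0.1 μg/ml doxycycline (Dox). HE cells were sorted from blast culture as KIT+Tie2+CD41- cells at day 2, without Dox or with Dox from day 1. Myeloid progenitors were grown from sorted KIT+CD41+ cells in expansion medium with stem cell factor, Flt3 ligand and thrombopoietin and taken at day 3, without Dox or after 12 h with Dox from day 2. The question is which genes respond to the same fusion protein in a different way at the endothelial and at the blood progenitor stage.

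RUNX1 is the transcription factor (TF) that drives endothelial cells of the HE to become blood cells, the endothelial–haematopoietic transition. In RUNX1-ETO, the product of a chromosome translocation of acute myeloid leukaemia, the DNA-binding runt domain of RUNX1 is joined to almost all of ETO, a protein that recruits histone deacetylases and other corepressors. The fusion binds the DNA motif of RUNX1, and both its repression and its activation of target genes depend on the other TFs of the cell.

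Several features of the design run together with the cell type. All 6 myeloid arrays lay on slide 3 and were scanned on another day than the HE arrays, which were spread over slides 1 and 2, so that cell type, slide, scan day, medium and length of induction cannot be told apart. No arrays of cells with Dox and without the transgene were used here. The line is 1 transgenic line, and the labels call the arrays biological replicates without saying which cultures they came from, so that the P values measure the spread between these arrays. Induced myeloid progenitor array 3 carries conflicting labels, a title that makes it biological and a source label that makes it technical. It differed from the other 2 arrays of its group by 0.348 and 0.346 (root mean square over genes, log2 intensity), compared with 0.343 between those 2, and was counted as replicate 3. In bulk samples, fewer cells of a type and less RNA per cell cannot be told apart.

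Levels are given throughout as normalised log2 intensity of the probe that stands for a gene, and are not comparable between genes. Runx1t1, the mouse gene of ETO, was read as a check of induction, although it is not known here whether its mouse probe detects the human transgene. The level of Runx1t1 was 10.56, 11.14 and 10.72 in uninduced HE, 11.9, 12.44 and 11.81 in induced HE, 9.28, 10.22 and 10.52 in uninduced myeloid progenitors and 11.93, 12.13 and 12.12 in induced myeloid progenitors. The induced arrays lay above the uninduced arrays in both cell types, with no overlap. The change was 1.24 in HE and 2.06 in myeloid progenitors, and the interaction term of 0.82 ± 0.47 (SE, adjusted P = 0.463) was not called.

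The labelled cell types were checked against defining markers. The endothelial genes Kit, Tek, Cdh5, Pecam1, Kdr, Esam and Sox17 were well above background on all 12 arrays, and their summed intensity was 16.3 to 17.1 (log2) in uninduced HE and 13.4 to 13.8 in uninduced myeloid progenitors. The myeloid list (Itga2b, Kit, Ptprc, Spi1, Mpo, Cebpa, Csf2rb, Fcgr3 and Ms4a3) summed to 13.3 to 14.0 in uninduced HE and 16.4 to 16.7 in uninduced myeloid progenitors, where Ms4a3 was well above background on 1 of 3 arrays. Itga2b, which encodes CD41, was at 9.49 to 11.5 in uninduced HE and 6.92 to 8.02 in induced HE, against 14.2 to 14.4 and 13.3 to 13.5 in myeloid progenitors. Markers of other cell types were detected as well. The 5 cardiac and smooth muscle genes summed to 15.3 to 16.3 in uninduced HE and 13.6 to 14.1 in induced HE, where Acta2 was far the highest. In myeloid progenitors the sums were 10.6 to 11.1 without and 12.4 to 12.9 with Dox. There Tnnt2 was at 9.95 to 10.4 without and 12.2 to 12.6 with Dox, and Acta2 at 8.47 to 9.97 and 9.43 to 10.3. Hand1 and Myl7 were not well above background on any induced myeloid array. The 4 erythroid genes summed to 14.8 to 15.3 in uninduced HE, 17.2 to 18.2 in induced HE and 19.2 to 19.6 over the 6 myeloid arrays. Of 3 measured macrophage genes, Csf1r was 9.45 to 11.3 in HE and 13.5 to 14.4 in myeloid progenitors, and the 3 megakaryocyte genes summed to 9.17 to 9.97 in uninduced and 7.52 to 8.41 in induced HE, and to 15.1 to 15.4 in uninduced and 13.4 to 13.6 in induced myeloid progenitors. The part of these cells in the results below was not tested.

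The response differed between the cell types for 718 genes, or 4.72% of the genes tested, by limma with a P of up to 0.001 before adjustment and a 2-fold or larger difference, which corresponded to an adjusted P of at most 0.0205. In 450 genes (2.96%) the response was higher in myeloid progenitors than in HE, and in 268 (1.76%) it was lower. The median interaction term over all genes was 0.0019. Of the called genes, 365 of 450 and 178 of 268 had a probe well above background on all 12 arrays, and the others were at or near background on some arrays. Across all genes the changes in HE and in myeloid progenitors correlated with r = 0.418, which is a description of these group means over genes that are not independent.

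**Figure D1:**
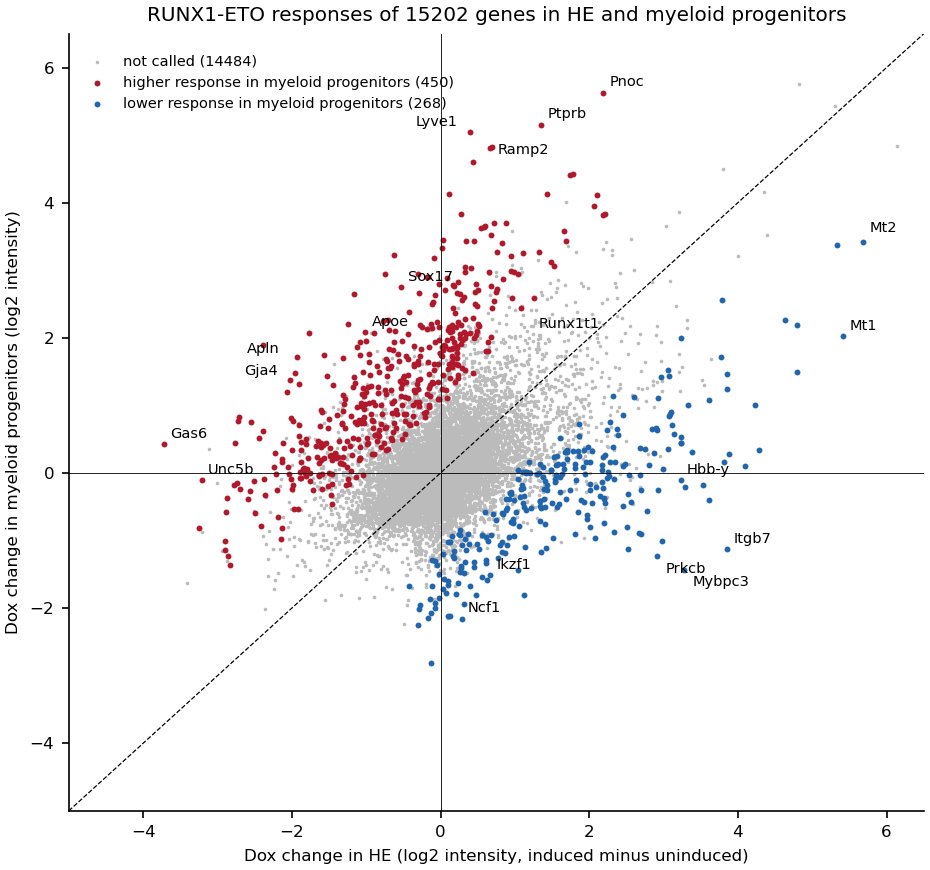
Change on Dox induction in HE (x axis) and in myeloid progenitors (y axis) for each of the 15202 tested genes, as a difference of group means of log2 intensity over 3 arrays each. The 450 genes with a higher response in myeloid progenitors (red) lie above the dashed line of equal change and the 268 with a lower response (blue) below it, and 353 and 215 of them were called for the change in 1 of the cell types only.

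Among all genes, Dox raised 4.7% and lowered 2.39% in HE and raised 5.13% and lowered 1.18% in myeloid progenitors by the same threshold. Of the 450 genes with a higher response in myeloid progenitors, 224 rose in myeloid progenitors and were not called in HE, 129 fell in HE and were not called in myeloid progenitors, and 8 fell in HE and rose in myeloid progenitors. A further 16 rose in both cell types and by more in myeloid progenitors, 3 fell in both, and 70 were called in neither cell type by itself. Of the 268 genes with a lower response in myeloid progenitors, 157 rose in HE alone, 58 fell in myeloid progenitors alone and 6 rose in HE and fell in myeloid progenitors, while 16 rose in both and 31 were called in neither. A change that was not called is not shown to be absent. In the 450 genes the induced and uninduced arrays did not overlap for 360 in myeloid progenitors and 290 in HE. In the 268 genes they did not overlap for 158 and 217, and in all 15202 tested genes for 7038 and 3802. Since the interaction term is made of these same changes, the split describes the called genes and is no further test of them.

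The genes with a higher response in myeloid progenitors were mostly higher in HE to begin with. Before induction, 376 of the 450 were lower in myeloid progenitors than in HE by the same threshold, compared with 15.3% of all genes, and 11 were higher, compared with 11% of all genes. Their median level was 11.6 in uninduced HE, 11.0 in induced HE, 8.55 in uninduced myeloid progenitors and 10.4 in induced myeloid progenitors. The genes with a lower response were the reverse, with 171 of 268 above HE in uninduced myeloid progenitors, 11 below, and median levels of 6.49, 8.63, 9.33 and 8.5 in the same order. Uninduced arrays enter both the difference between cell types and the change on Dox, so that these counts share their data with the calls. Over all genes, induced HE and induced myeloid progenitors differed by 1.19 (root mean square of the group means, log2), compared with 1.43 without Dox.

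**Figure D2:**
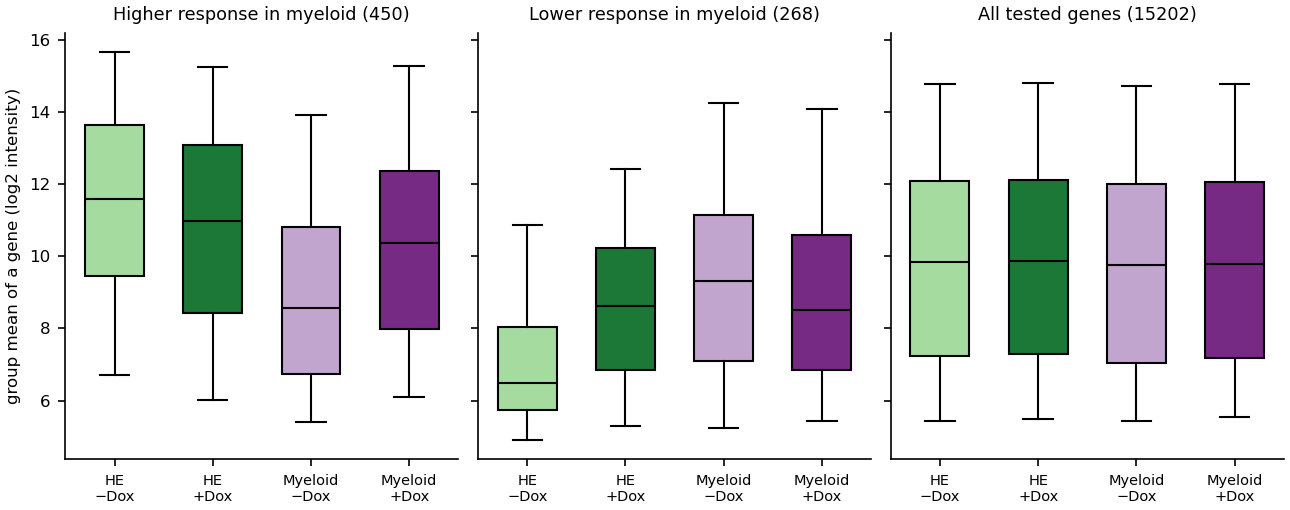
Group mean levels (log2 intensity, 3 arrays a group) of the 450 genes with a higher and the 268 genes with a lower response in myeloid progenitors, and of all 15202 tested genes. Boxes show median and quartiles over genes and whiskers the 5th and 95th percentiles. The median of the first set fell from 11.6 to 11.0 in HE and rose from 8.55 to 10.4 in myeloid progenitors, and that of the second set rose from 6.49 to 8.63 in HE and fell from 9.33 to 8.5 in myeloid progenitors.

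Endothelial genes had the largest share of differing responses among the lists of genes examined. Of 35 tested genes of endothelial identity, 19 had a higher and 0 a lower response in myeloid progenitors, and the median interaction term was 2.05. In myeloid progenitors 25 of the 35 rose with Dox, and in HE 3 rose and 3 fell. Lyve1, a hyaluronan receptor of lymphatic and early haemogenic endothelium, had the largest positive term of all genes. The level of Lyve1 was 9.6, 9.21 and 9.12 in uninduced HE, 9.91, 10.01 and 9.2 in induced HE, 6.68, 7.9 and 7.29 in uninduced myeloid progenitors and 12.59, 12.3 and 12.11 in induced myeloid progenitors. The induced myeloid arrays lay above every other array, whereas the induced and uninduced HE arrays overlapped. The interaction term was 4.65 ± 0.45 (SE, adjusted P = 1.08e-05). For Sox17, an endodermal and arterial TF, the levels were 12.09, 12.29 and 12.63 in uninduced HE, 12.08, 11.67 and 11.68 in induced HE, 7.86, 8.84 and 8.31 in uninduced myeloid progenitors and 11.52, 11.02 and 10.73 in induced myeloid progenitors. Here Dox brought the myeloid progenitors from far below HE to just below it, while the induced HE arrays lay just below the uninduced ones. The change of 2.75 in myeloid progenitors and -0.53 in HE gave an interaction term of 3.28 ± 0.43 (SE, adjusted P = 0.000128). Nos3, the endothelial nitric oxide synthase, measured 14.6, 15.07 and 15.47 in uninduced HE, 13.28, 13.78 and 14.35 in induced HE, 8.07, 9.8 and 8.95 in uninduced myeloid progenitors and 11.48, 11.02 and 10.91 in induced myeloid progenitors. It changed by -1.24 in HE and by 2.2 in myeloid progenitors, with an interaction term of 3.44 ± 0.57 (SE, adjusted P = 0.000956).

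Other endothelial genes followed the same course. Cdh5, the cadherin of endothelial junctions, changed by -0.73 in HE and 1.69 in myeloid progenitors. Esam, an adhesion molecule of endothelium and stem cells, changed by 0.12 and 2.16, and Kdr, the receptor for VEGF-A, by 0.23 and 2.24. Stab1, a scavenger receptor, had an interaction term of 2.82 ± 0.45 (SE, adjusted P = 0.000676) and Cd93, a lectin-like receptor, of 2.96 ± 0.48 (SE, adjusted P = 0.000832). Ptprb, the tyrosine phosphatase that acts on Tie2, was not in this list and rose in both cell types, by 1.36 in HE and 5.15 in myeloid progenitors, so that the interaction term of 3.8 ± 0.4 (SE, adjusted P = 1.66e-05) reflects the size of the rise. Tek, which encodes Tie2 and was used in the sort of HE, was not called. Its HE arrays ranged from 10.77 to 13.81 without and from 11.96 to 14.15 with Dox, and the change was 3.13 between arrays of slide 1 and -1.52 between arrays of slide 2. Vwf, the von Willebrand factor, fell in both cell types, and its term of 1.64 was called with all arrays but with none of 8 single arrays left out (all but uninduced HE 2, induced HE 2, uninduced myeloid 1 and induced myeloid 3), with terms of 1.47 to 1.61 and adjusted P values of 0.0363 to 0.0431. Aplnr, Eng and Emcn had terms of 3.02, 2.29 and 2.22, and did not pass the test.

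Genes of coagulation and vascular tone were the list with the next largest share, with 11 of 35 members higher and 1 lower, and a median term of 0.86. This list overlaps with that of endothelial identity, and the called genes Apln and Nos3 are counted in both. Ramp2 encodes a partner of the adrenomedullin receptor of endothelium. Its level was 17.05, 17.32 and 17.3 in uninduced HE, 17.84, 17.94 and 17.88 in induced HE, 11.12, 12.2 and 11.58 in uninduced myeloid progenitors and 16.65, 16.51 and 16.17 in induced myeloid progenitors. The myeloid arrays rose by 4.81 towards the level of HE, and the term was 4.15 ± 0.33 (SE, adjusted P = 4.84e-06). Uninduced HE was already at 17.05 to 17.32, and no gene had a normalised level above 18.8. A rise of 4.81 could therefore not have been seen in HE, which limits the term of Ramp2. Gas6, the ligand of the TAM receptor tyrosine kinases, reached a similar term by the opposite path. Its level was 14.71, 15.15 and 15.06 in uninduced HE, 11.39, 11.69 and 10.67 in induced HE, 9.07, 9.92 and 8.97 in uninduced myeloid progenitors and 9.72, 9.64 and 9.87 in induced myeloid progenitors. It fell by 3.72 in HE, and the myeloid arrays with and without Dox overlapped, with an interaction term of 4.15 ± 0.43 (SE, adjusted P = 1.66e-05). Edn1, which encodes the vasoconstrictor endothelin-1, changed by -1.91 in HE and 1.31 in myeloid progenitors. Thbd, the thrombin receptor thrombomodulin, changed by 0.45 and 3.43. Ednra, an endothelin receptor, was the member with a lower response.

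**Figure D3:**
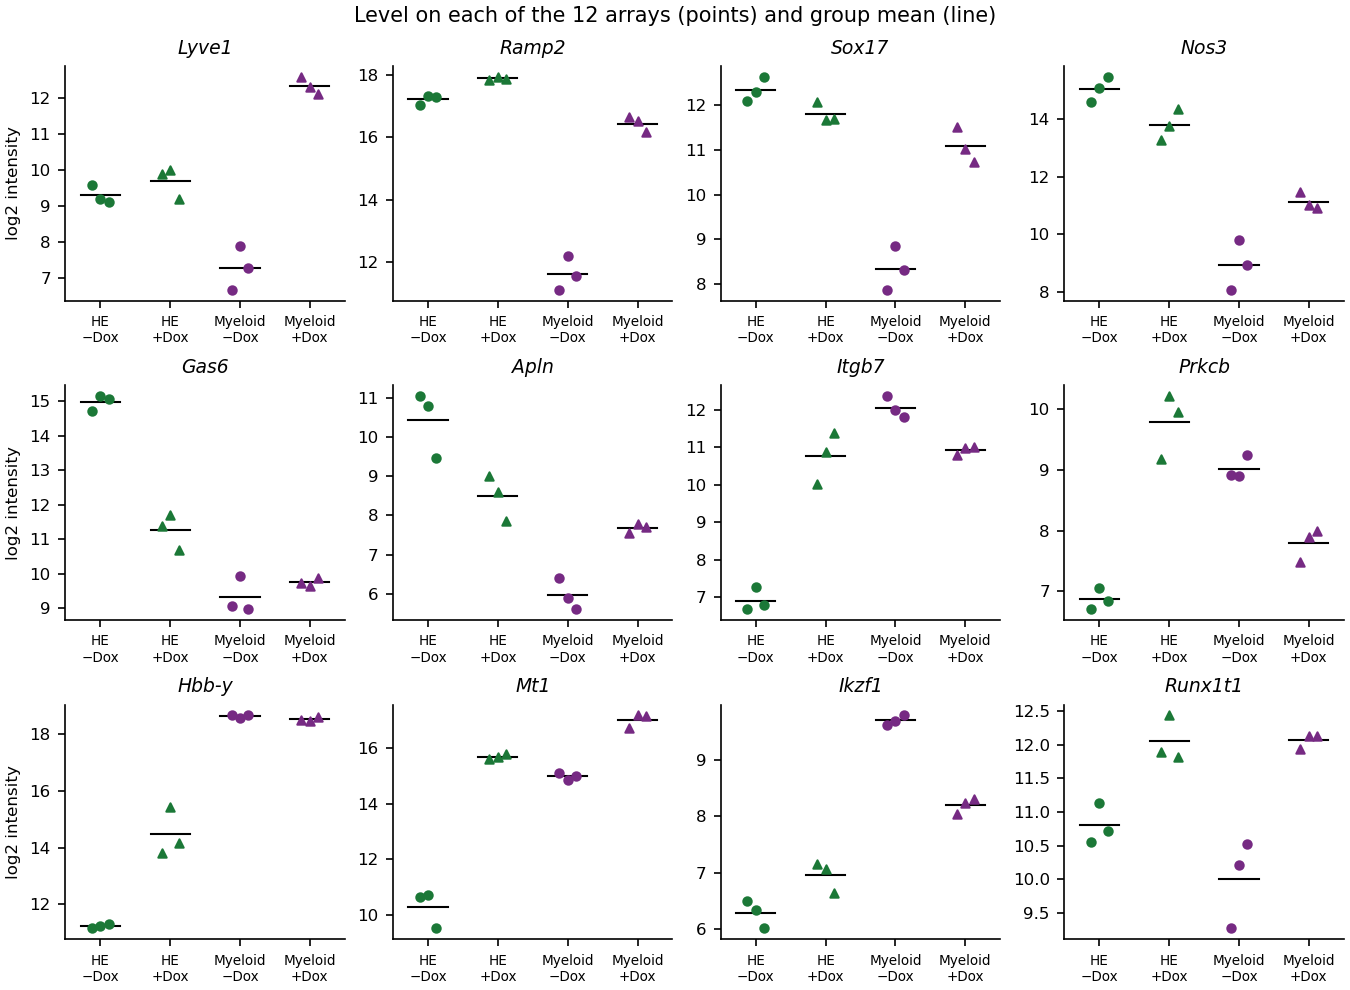
Levels (log2 intensity) of 12 genes on each of the 12 arrays, by group. Points are arrays (circles without, triangles with Dox, green HE, purple myeloid progenitors) and lines are group means of 3, and each gene has its own y axis, which does not start at 0. Lyve1, Ramp2, Sox17 and Nos3 rose in myeloid progenitors, Gas6 fell in HE, Apln and Prkcb moved in opposite directions, Itgb7 and Hbb-y rose in HE, Mt1 rose more in HE, Ikzf1 fell in myeloid progenitors, and Runx1t1 was higher with Dox on all arrays of both cell types.

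Matrix genes had 13 of 47 members with a higher and 0 with a lower response, with a median interaction term of 1.34. The collagen IV chains of basement membranes, Col4a1 and Col4a2, had terms of 2.54 and 2.43. Col4a1 lost its call when any array was left out other than uninduced HE 2, induced HE 1 and uninduced myeloid progenitors 2, with terms of 2.11 to 2.59 and adjusted P values of 0.0372 to 0.0612. Has2, a hyaluronan synthase outside the list, rose by 4.6 in myeloid progenitors and changed by 0.44 in HE, with a term of 4.16 ± 0.4 (SE, adjusted P = 1.08e-05).

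Signalling molecules of blood vessels and mesoderm were also among the genes with a higher response. Of 50 tested genes of the semaphorin, ephrin and netrin families, which guide axons and vessels, 8 were higher and 1 was lower. Unc5b, the netrin receptor of endothelium, fell by 3.21 in HE and changed by -0.1 in myeloid progenitors, whereas its relative Unc5c rose by 2.79 in myeloid progenitors and changed by 0.17 in HE. The terms of Epha2 and Sema3f were 2.31 and 2.27. In the TGF-beta and BMP pathway, 6 of 45 were higher and 1 was lower. Bmp4, a ligand that patterns mesoderm, had a term of 2.81 ± 0.31 (SE, adjusted P = 2.34e-05), and Bmp2 one of 2.18 ± 0.35 (SE, adjusted P = 0.00075). Ltbp2, a latent TGF-beta binding protein, went the other way at -3.33 ± 0.52 (SE, adjusted P = 0.000553), rising by 2.77 in HE. Rspo3, an enhancer of WNT signalling, was 1 of 3 members of the WNT pathway with a higher response among 41, and its level was 13.13, 14.07 and 13.82 in uninduced HE, 13.81, 14.06 and 13.27 in induced HE, 7.08, 8.58 and 7.95 in uninduced myeloid progenitors and 11.19, 11.32 and 11.44 in induced myeloid progenitors. The HE arrays with and without Dox overlapped, and it rose by 3.45 in myeloid progenitors, with a term of 3.41 ± 0.5 (SE, adjusted P = 0.000373). None of 25 tested genes of the Notch pathway was called, compared with 4.72% of all tested genes, a share at which a list of this size can hold none. Among 17 genes of mesenchyme and of the epithelial to mesenchymal transition, 4 were higher and 1 was lower. They included the cadherin Cdh2 and the intermediate filament gene Vim, with terms of 2.49 and 2.01, and the lower member was the surface glycoprotein Thy1, with a term of -3.49. Of 23 chemokines and their receptors 4 were higher and 0 lower.

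Among TFs of stem and progenitor cells, 4 of 23 had a higher and 1 a lower response. Erg, an ETS family TF of endothelium and stem cells, was at 10.97, 10.23 and 9.71 in uninduced HE, 10.82, 10.16 and 10.34 in induced HE, 6.94, 7.51 and 7.46 in uninduced myeloid progenitors and 9.29, 9.74 and 9.13 in induced myeloid progenitors. It rose by 2.08 in myeloid progenitors and changed by 0.13 in HE, and the term was 1.95 ± 0.44 (SE, adjusted P = 0.00976). Without uninduced HE array 1, induced HE array 2 or 3, uninduced myeloid array 1 or induced myeloid array 2, the term of Erg was 1.62 to 1.90 and the call was lost (adjusted P = 0.0242 to 0.0329). Lyl1, a bHLH factor of stem cells, fell by 2.50 in HE and had a term of 1.9 ± 0.35 (SE, adjusted P = 0.00231). Ikzf1, a zinc finger TF of lymphoid and myeloid cells, was the member with a lower response. Its level was 6.5, 6.34 and 6.01 in uninduced HE, 7.16, 7.07 and 6.63 in induced HE, 9.63, 9.7 and 9.8 in uninduced myeloid progenitors and 8.04, 8.25 and 8.3 in induced myeloid progenitors. The HE arrays lay low in both states, with the induced arrays above the uninduced ones without overlap. The myeloid arrays fell by 1.52 without overlap, and the term of -2.19 ± 0.37 (SE, adjusted P = 0.00101) holds both changes. Of 22 myeloid TFs, 2 were higher and 2 lower. Gfi1, a repressor that acts downstream of RUNX1, rose by 3.22 in myeloid progenitors with a term of 3.85 ± 0.58 (SE, adjusted P = 0.000425). Irf8, a TF of the monocyte lineage, changed by 1.52 in HE and -0.96 in myeloid progenitors, with a term of -2.48 ± 0.35 (SE, adjusted P = 0.000273).

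Several genes that the study examined at one of the stages were not called. The interaction term was 0.91 ± 0.28 (SE, adjusted P = 0.0561) for Fli1, 1.46 ± 0.43 (SE, adjusted P = 0.0503) for Meis1 and 0.81 ± 0.4 (SE, adjusted P = 0.326) for the Notch ligand Jag1. It was -0.94 ± 0.5 (SE, adjusted P = 0.398) for Runx1 itself, -0.97 ± 0.57 (SE, adjusted P = 0.467) for Cebpa and 0.17 ± 0.61 (SE, adjusted P = 0.978) for Cebpb, which encode C/EBP TFs of granulocytes. Spi1, which encodes the myeloid TF PU.1, was well above background on 3 of 6 HE arrays, so that its term of -1.09 ± 0.52 (SE, adjusted P = 0.303) rests on HE levels of 4.94 to 5.71 near background. For the AP-1 genes Fos, Fosb and Jund the terms were -1.6 ± 0.96 (SE, adjusted P = 0.49), -1.78 ± 1.4 (SE, adjusted P = 0.684) and 0.38 ± 0.44 (SE, adjusted P = 0.857). These tests do not show that the responses were alike.

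Neuropeptide and secretory granule genes had 4 higher and 2 lower among 26. Pnoc, which encodes prepronociceptin, measured 7.95, 8.23 and 8.95 in uninduced HE, 10.24, 10.76 and 10.69 in induced HE, 5.26, 5.63 and 5.78 in uninduced myeloid progenitors and 11.27, 11.2 and 11.09 in induced myeloid progenitors. It was not well above background on the uninduced myeloid arrays and rose there at least 49.5-fold, while it rose by 2.19 on the log2 scale in HE. Cck, the cholecystokinin gene, changed by 0.7 in HE and 4.83 in myeloid progenitors, where 1 of 3 uninduced arrays was well above background.

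Turning to the genes with a lower response in myeloid progenitors, Itgb7, an integrin chain of leukocytes, had the largest negative term of all genes. Its level was 6.68, 7.27 and 6.79 in uninduced HE, 10.02, 10.88 and 11.39 in induced HE, 12.37, 11.99 and 11.81 in uninduced myeloid progenitors and 10.79, 10.98 and 11.02 in induced myeloid progenitors. It rose by 3.85 in HE, into the range of the induced myeloid arrays, and changed by -1.13 in myeloid progenitors, and the term was -4.98 ± 0.45 (SE, adjusted P = 7.29e-06). Mybpc3, a cardiac myosin-binding protein, had a term of -4.71 ± 0.52 (SE, adjusted P = 2.80e-05), with a change of 3.28 in HE and -1.43 in myeloid progenitors. Hrc, a calcium-binding protein of the sarcoplasmic reticulum, rose by 3.53 in HE and changed by -0.18 in myeloid progenitors. Calml4, a calmodulin-like protein, rose by 4.1 in HE from levels where 1 of 3 arrays was well above background, and changed by 0.1 in myeloid progenitors. Of the 268 genes with a lower response, 179 rose in HE.

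Erythroid genes were the list with the largest share of lower responses. Of 24 tested, 5 had a lower and 0 a higher response, 0 had a positive term, and the median was -1.04. In HE, 7 of them rose with Dox and 0 fell, and in myeloid progenitors 0 rose and 2 fell. Hbb-y, an embryonic beta globin, was at 11.16, 11.24 and 11.31 in uninduced HE, 13.82, 15.41 and 14.17 in induced HE, 18.65, 18.55 and 18.65 in uninduced myeloid progenitors and 18.48, 18.45 and 18.6 in induced myeloid progenitors. It rose by 3.23 in HE with no overlap, and the term was -3.33 ± 0.44 (SE, adjusted P = 0.000181). The related Hbb-bh1 was at 15.26, 15.09 and 14.76 in uninduced HE, 17.78, 18.18 and 17.21 in induced HE, 18.73, 18.73 and 18.73 in uninduced myeloid progenitors and 18.73, 18.65 and 18.73 in induced myeloid progenitors. The myeloid arrays of both genes lay close to the highest normalised level of any gene, 18.8, so that a rise there like that in HE could not have been seen, although no spot was saturated, and both terms carry this limit. Globin genes are near copies of each other, and their probes may share target. Alas2, the erythroid enzyme of haem synthesis, changed by 3.23 in HE and 0.45 in myeloid progenitors, with a term of -2.79 ± 0.61 (SE, adjusted P = 0.00758). Without uninduced HE array 1 or 3, induced HE array 2 or induced myeloid array 1, its call was lost (term -2.60 to -2.41, adjusted P = 0.0223 to 0.0266). Without induced myeloid array 1 the call of Epb42, a red cell membrane protein, was also lost (term -1.61, and -1.43 without it), and 3 erythroid genes were left.

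Of 42 genes that act through ITAM motifs and Fc receptors, 7 had a lower and 0 a higher response, with a median term of -0.40. In HE, 7 of the 42 rose and 3 fell, and in myeloid progenitors 0 rose and 4 fell. Pik3cd, the leukocyte PI3-kinase subunit, was at 7.02, 7.7 and 7.27 in uninduced HE, 9.45, 9.73 and 9.41 in induced HE, 12.21, 11.62 and 11.54 in uninduced myeloid progenitors and 11.14, 11.07 and 10.93 in induced myeloid progenitors. It rose in HE without overlap and was lower in the induced than in the uninduced myeloid arrays, and the term was -2.94 ± 0.31 (SE, adjusted P = 1.66e-05). Tyrobp, the adaptor DAP12, changed by 2.04 in HE and -0.45 in myeloid progenitors. Siglecf, a sialic acid receptor, had a term of -1.95, and lost its call without uninduced HE array 3 or uninduced myeloid array 1 (term -1.80 to -1.69, adjusted P = 0.0240 to 0.0276). Either of these arrays brought the 7 calls of this list to 4, as did scaling to the 75th percentile. Ncf1, a subunit of the phagocyte oxidase outside this list, fell by 2.16 in myeloid progenitors and changed by 0.29 in HE, with a term of -2.44 ± 0.35 (SE, adjusted P = 0.000296). Megakaryocyte genes had 4 lower and 1 higher among 23. Gp6 and Gp1bb, platelet receptors, fell by 1.60 and 1.27 in myeloid progenitors, and Clec1b, a podoplanin receptor, rose by 2.84 in HE. Ppbp, a platelet chemokine, fell by 1.72 in myeloid progenitors and was not well above background on any HE array, so that its change in HE was not measured. F2r, a thrombin receptor, was the member with a higher response.

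In the prostaglandin and leukotriene pathway, 3 of 26 were lower and 1 was higher. Hpgd, the dehydrogenase that inactivates prostaglandins, was at 7.44, 6.85 and 7.4 in uninduced HE, 10.36, 10.11 and 10.19 in induced HE, 11.52, 11.49 and 11.01 in uninduced myeloid progenitors and 10.34, 10.23 and 10.43 in induced myeloid progenitors. It rose by 2.99 in HE and changed by -1.0 in myeloid progenitors, with a term of -3.99 ± 0.42 (SE, adjusted P = 1.76e-05). Ptgir, the prostacyclin receptor, rose by 3.24 in HE. Pla2g7, a secreted phospholipase, had a term of -3.22, and of -3.0 without induced HE array 3, where the call was lost (adjusted P = 0.0237).

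The metallothioneins Mt1 and Mt2, which bind zinc and other metals, rose in both cell types and by more in HE. The level of Mt1 was 10.63, 10.69 and 9.51 in uninduced HE, 15.62, 15.66 and 15.78 in induced HE, 15.11, 14.85 and 15.0 in uninduced myeloid progenitors and 16.71, 17.18 and 17.15 in induced myeloid progenitors. Uninduced HE was lowest by a wide margin, and induced HE lay between the uninduced and the induced myeloid arrays. Mt1 rose by 5.41 in HE and 2.03 in myeloid progenitors, and Mt2 by 5.69 and 3.41. The terms were -3.39 ± 0.47 (SE, adjusted P = 0.000225) and -2.27 ± 0.4 (SE, adjusted P = 0.00158), and the probes of these near copies may share target. In all, 3 of 23 genes of this family and of zinc transport were lower and 1 was higher. Of 44 interferon-stimulated genes, 4 were lower and 1 was higher, with a median term of 0.10. Ifi27 rose by 3.88 in HE and changed by 0.28 in myeloid progenitors, and Ifit1, the member with a higher response, changed by -0.08 and 1.93, being well above background on 2 of 6 HE arrays.

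Several groups held no gene with a differing response, compared with 4.72% of all tested genes. These were replication and mitosis (40 genes), ribosome biogenesis (42), glycolysis and the hypoxia response (38), antigen presentation (25), the BCL2 family (16) and the RUNX and ETO families with their cofactors (30). At the share of all genes, a list of this size can hold no called gene, so that these counts do not set the groups apart. The genes of replication and mitosis had a median change of -0.73 in HE and -0.54 in myeloid progenitors, and those of ribosome biogenesis of -0.41 and -0.51.

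**Figure D4:**
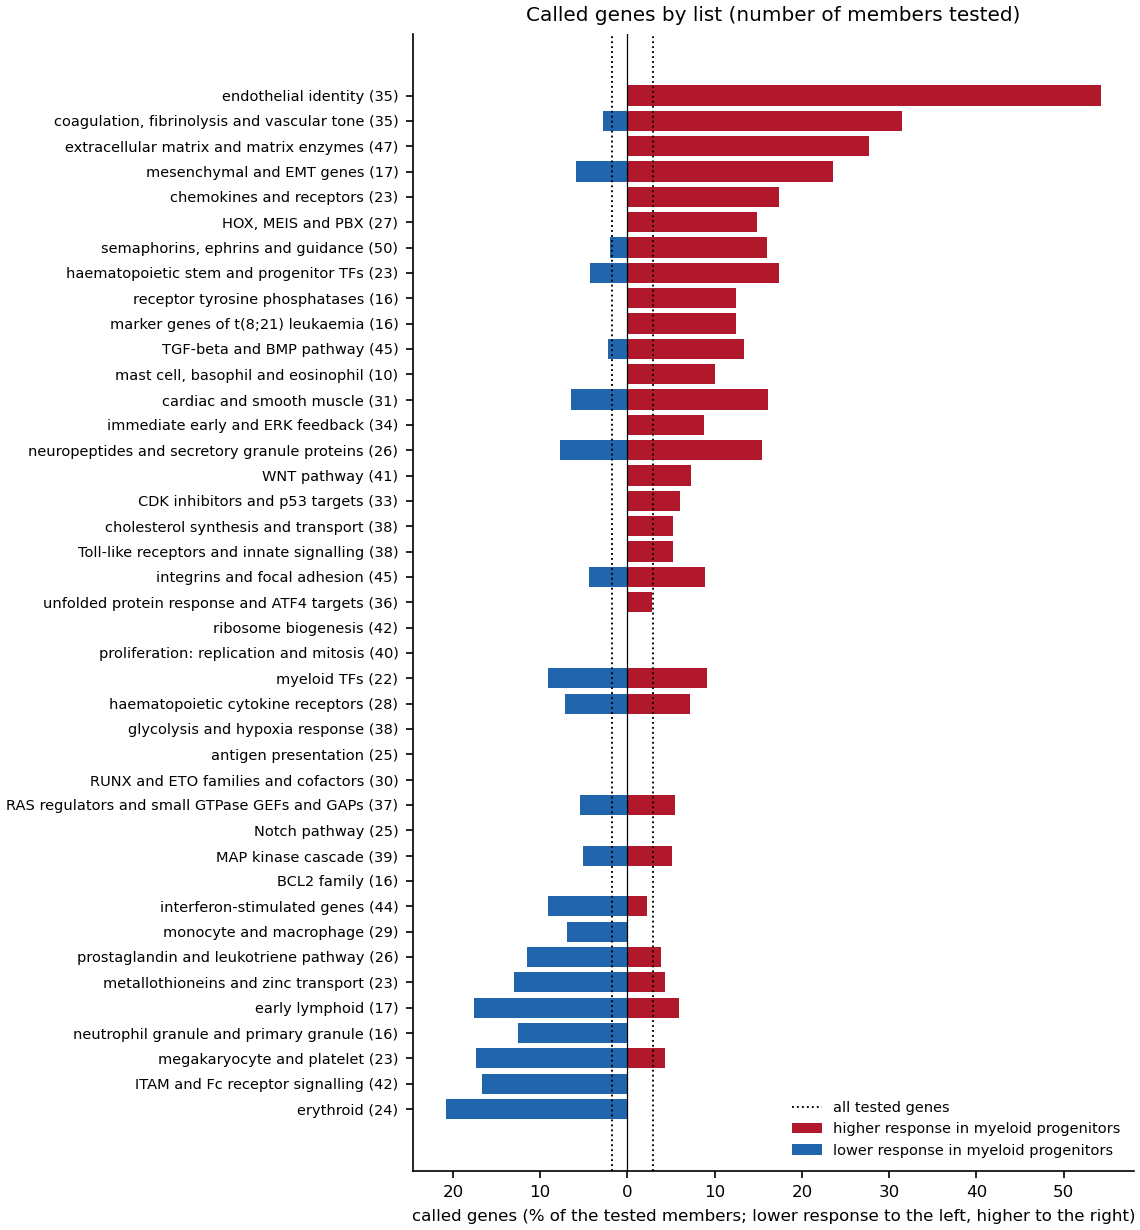
Share of tested members (x axis, percent) of each list with at least 10 tested genes that had a higher (red, to the right) or a lower (blue, to the left) response in myeloid progenitors, with the number tested in brackets and dotted lines at the shares of all genes, 2.96 and 1.76%. Endothelial genes reached 54.3% on the right and erythroid genes 20.8% on the left.

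A group of 14 genes was called for the interaction and called in opposite directions in the cell types. Of these, 8 fell in HE and rose in myeloid progenitors. They include Apln, the ligand of the apelin receptor, whose level was 11.04, 10.77 and 9.47 in uninduced HE, 9.01, 8.6 and 7.87 in induced HE, 6.4, 5.91 and 5.62 in uninduced myeloid progenitors and 7.55, 7.79 and 7.71 in induced myeloid progenitors. It fell by 1.94 in HE and rose by 1.71 in myeloid progenitors, where 2 of 3 uninduced arrays were well above background, and the term was 3.65 ± 0.54 (SE, adjusted P = 0.000408). Gja4, the arterial gap junction protein connexin 37, was at 13.81, 13.73 and 14.0 in uninduced HE, 11.51, 11.9 and 12.07 in induced HE, 9.48, 10.57 and 10.21 in uninduced myeloid progenitors and 11.72, 11.5 and 11.19 in induced myeloid progenitors. The arrays of both induced groups overlapped, HE having come from above and myeloid progenitors from below, and the term was 3.4 ± 0.36 (SE, adjusted P = 1.66e-05). Apoe, the apolipoprotein E gene, changed by -1.01 and 2.08, Gata6, a TF of endoderm and heart, by -1.31 and 1.16, Klhl4 by -1.57 and 1.75, and Gngt2, a G protein subunit, by -1.16 and 1.42. The growth factor genes Pdgfb and Vegfc changed by -1.16 and -1.08 in HE and by 1.33 and 1.94 in myeloid progenitors. The other 6 rose in HE and fell in myeloid progenitors. Prkcb, the beta isoform of protein kinase C, was at 6.71, 7.06 and 6.84 in uninduced HE, 9.18, 10.22 and 9.95 in induced HE, 8.91, 8.9 and 9.25 in uninduced myeloid progenitors and 7.48, 7.9 and 7.99 in induced myeloid progenitors. It rose by 2.92 in HE and fell by 1.23 in myeloid progenitors, so that induced HE had the highest and uninduced HE the lowest group mean, and the term was -4.14 ± 0.37 (SE, adjusted P = 7.29e-06). Il6ra, the interleukin-6 receptor, changed by 1.43 and -1.11, and Slc2a6, a sugar transporter, by 1.13 and -1.8. Grtp1 changed by 2.52 and -1.12, Wdfy4, a protein of antigen cross-presentation, by 1.14 and -1.1, and Tesc, a calcium-binding protein, by 1.05 and -1.44.

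The promoters of the genes with the largest terms were read for the RUNX motif that the runt domain binds, as TGTGGT or TGCGGT on either strand, in the 250 bases before each start that RefSeq gives (GRCm38.p6). Windows were at hand for 333 of the 450 and 202 of the 268 genes. Of 455 windows of the genes with a higher response 18% held a match, and of 268 windows of those with a lower response 21.6%, compared with 17.4% of all 15221 windows of tested genes. The AP-1 motif TGANTCA was in 5.05% and 9.33% of these windows, compared with 5.05% of all, and the GATA motif AGATAA in 8.13% and 7.84%, compared with 7.07%. Windows of a gene with several starts can overlap, and the shares were not tested. Among the genes with the largest terms that had a window, Gas6 and Prkcb held a match. Aqp1, Gfi1, Grtp1, Hpgd, Hrc, Itgb7, Mybpc3, Myo1g and Myzap held none. The windows of Gas6 and Prkcb, chosen for their match, are shown with the match in capitals. Beside them is that of Itgb7, which had the largest negative term and no match. The window of Gas6 is chr8:13494536-13494785 on the minus strand, that of Prkcb is chr7:122288875-122289124 on the plus strand and that of Itgb7 is chr15:102231936-102232185 on the minus strand, all written 5′ to 3′ in the direction of the gene.
Gas6: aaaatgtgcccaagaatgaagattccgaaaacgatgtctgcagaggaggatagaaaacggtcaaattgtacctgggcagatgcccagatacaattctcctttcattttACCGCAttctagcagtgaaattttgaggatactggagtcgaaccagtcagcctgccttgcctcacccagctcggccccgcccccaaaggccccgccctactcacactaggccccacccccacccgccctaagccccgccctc
Prkcb: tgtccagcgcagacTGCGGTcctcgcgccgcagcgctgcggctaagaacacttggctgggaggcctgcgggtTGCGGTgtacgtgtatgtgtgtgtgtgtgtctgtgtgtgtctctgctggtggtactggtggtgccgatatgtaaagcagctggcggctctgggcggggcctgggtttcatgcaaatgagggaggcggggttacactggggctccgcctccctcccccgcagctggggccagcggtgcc
Itgb7: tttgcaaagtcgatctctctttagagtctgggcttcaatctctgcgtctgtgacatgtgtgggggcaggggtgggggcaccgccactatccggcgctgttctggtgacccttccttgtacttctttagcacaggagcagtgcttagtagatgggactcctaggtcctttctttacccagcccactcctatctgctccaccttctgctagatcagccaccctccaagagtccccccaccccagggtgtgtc
The match in Gas6 began 142 bases before the start, and those in Prkcb 236 and 178 bases before it. A match to these letters is a description of the window and does not show binding.

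The arrays of HE2, the KIT+Tie2+CD41+ cells in transition, and of CD41+KIT+Tie2- progenitors did not enter the size of the interaction term. They were part of the same fit, and so of the normalisation, the filter and the estimate of spread behind the calls, and with the 12 arrays fitted alone 684 genes were called, of which 605 were among the 718. Both were induced at day 1 and sorted at day 2 like HE. Among all genes, Dox raised 5.17% and lowered 2.05% in HE2 and raised 3.03% and lowered 0.704% in these progenitors. The 224 genes that rose in myeloid progenitors alone had median changes of 0.02 in HE, 0.71 in HE2, 0.92 in CD41+KIT+Tie2- progenitors and 1.92 in myeloid progenitors, and 73 rose and 0 fell in HE2, and 83 rose and 0 fell in the CD41+KIT+Tie2- progenitors. The 129 genes that fell in HE alone had medians of -1.68, -0.89, -0.20 and 0.19 in the same order, with 47 falling and 0 rising in HE2 and 7 falling and 3 rising in the progenitors. The 157 genes that rose in HE alone had medians of 1.98, 1.06, 0.34 and -0.02, with 76 rising and 0 falling in HE2. For the 58 genes that fell in myeloid progenitors alone the medians were 0.20, -0.30, -0.52 and -1.48, and 11 fell in HE2 and 11 in the progenitors. The end values of each series chose the genes, and the sizes of the middle values did not. HE2 arrays shared slides 1 and 2 with HE. Of the 4 arrays of the CD41+KIT+Tie2- progenitors, the uninduced arrays lay on slides 1 and 2 and the induced arrays on slides 1 and 3. Induced array 2 thus shared the slide and scan day of the myeloid arrays, with 48.8% of spots well above background. The part of slide and scan day in the change of these progenitors was not tested. Ramp2 changed by 1.95 in HE2 and 3.44 in the CD41+KIT+Tie2- progenitors, Gas6 by -1.56 and -0.68, Itgb7 by 2.04 and 0.34, and Hpgd by 3.1 and -1.0. Not all genes lay between the outer stages. Hbb-y changed by 4.34 and 4.47, compared with 3.23 in HE, and Tyrobp changed by -1.03 in HE2, compared with 2.04 in HE and -0.45 in myeloid progenitors.

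**Figure D5:**
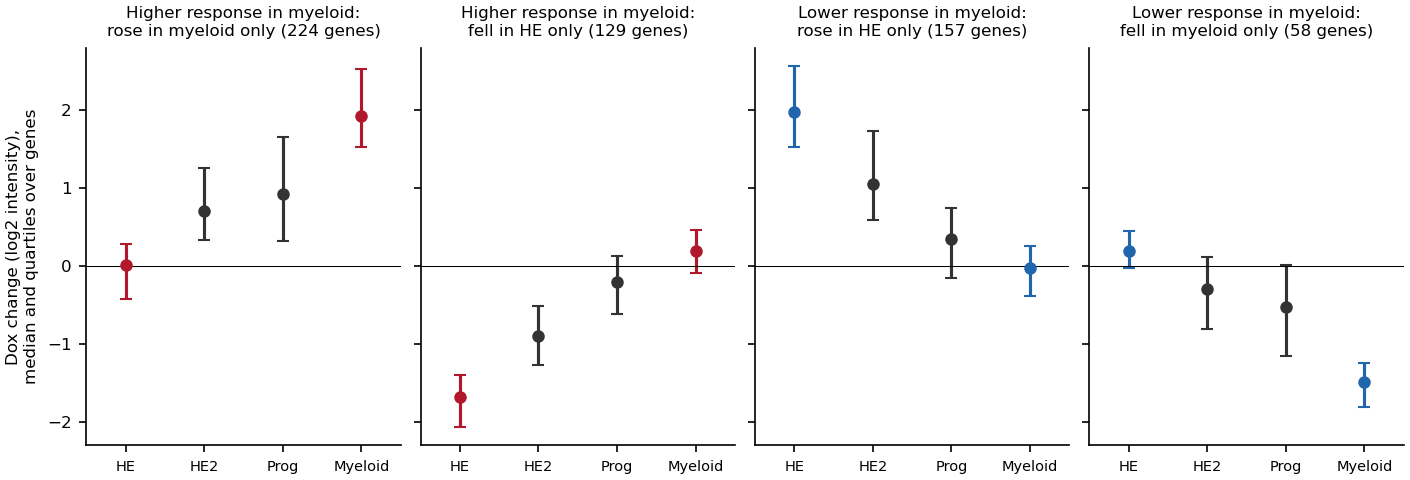
Median change on Dox (log2 intensity, bars are quartiles over genes) of 4 classes of called genes in HE, HE2, CD41+KIT+Tie2- progenitors (Prog) and myeloid progenitors. The classes were chosen by the changes at the coloured points, and the changes at the black points of HE2 and Prog did not enter the size of the term, with medians of 0.71 and 0.92 for the 224 genes that rose in myeloid progenitors alone and of -0.89 and -0.20 for the 129 that fell in HE alone.

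Induced and uninduced HE arrays were spread unevenly over 2 slides, and the response of HE was therefore also read within each. With the HE arrays of slide 1 alone, 2 uninduced and 1 induced, 391 genes were called (238 higher and 153 lower), of which 327 were among the 718. With those of slide 2 alone, 1 uninduced and 2 induced, 664 were called (390 and 274), of which 437 were among the 718. The change of HE itself had the same sign on both slides in 369 of the 450 and 243 of the 268 called genes, and in 8028 of the 15202 tested genes. The called genes were chosen by a term that holds the HE change of these same arrays. Their counts therefore share data with the calls and are no further test of them. The share of called genes that were higher was 60.9 and 58.7% on the slides and 62.7% over all arrays.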

How the data were processed

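RNA of sorted or cultured cells was labelled with Cy3 and hybridised to Agilent 1-colour mouse arrays, 1 array per sample. Intensity per spot was deposited as median pixel brightness of the spot and of its local background, from Feature Extraction (10.7.3.1 per the file headers and 10.7.1.1 per the labels), with 0 or 1 flags for outliers, saturation and signal well above background (other values, per the file headers). The authors also deposited log2 intensity after normexp (offset 16) and quantile normalisation in limma, which served as an alternative.

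For the results, spot intensities were background-corrected with normexp (offset 16), control spots and outlier flags were left out, and 23 arrays were quantile normalised with limma (3.58.1, R 4.3.3). The medians of the pixels were used. Of 55681 probes, 26582 matched a RefSeq gene by accession (GRCm38.p6 table, used for names and promoter sequence), which gave 20145 genes, each read from the probe of highest mean level. Genes that reached 6.5 (log2) on any array were kept (15202). Probes well above background covered 51.2 to 78.4% of spots on the 12 arrays, none was saturated, and precision is set by how many arrays there are.

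lmFit and eBayes were run on 22 arrays, without the array titled a technical replicate (an uninduced CD41+KIT+Tie2- array), and the interaction contrast was taken from this fit (14 residual degrees of freedom). A gene was called with a limma P of up to 0.001 before adjustment and a log2 size of 1 or more, after the study's methods, and P values given as adjusted are Benjamini-Hochberg over 15202 genes. For 156 of the tested genes, 1 or more of the 12 arrays was missing for an outlier flag, and none of the genes with values by array is among them. The scripts were tested on simulated data.

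Genes named were those the study examined at these stages, the largest terms in each direction with and without the requirement of signal on all arrays, genes called in opposite directions, and up to 6 called members of each list. Aplnr, Cdh5, Ednra, Emcn, Eng, Esam, Kdr, Pdgfb, Tek, Tesc, Vegfc and Vwf were added after their values were seen. The members and the lists were chosen with earlier results of these data known. Alternatives covered background correction, normalisation, filters, probe choice, thresholds, blocks, array weights and each array left out. Results for some genes are not reported here.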

Additional observations from a re-analysis of the deposited data

Results flagged for a closer look

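Because the interaction term is itself a test of whether the effect of Dox differs between cell types, the 450 genes with a higher and the 268 genes with a lower response in myeloid progenitors are listed here as a whole. Groups of 3 arrays were too small for a check of single arrays that stand apart. The 14 genes called in opposite directions deserve a closer look, since neither cell type alone gives their difference. Their interaction terms were positive at 3.65 for Apln, 3.09 for Apoe, 2.47 for Gata6, 3.4 for Gja4, 2.58 for Gngt2, 3.32 for Klhl4, 2.49 for Pdgfb and 3.02 for Vegfc. They were negative at -3.64 for Grtp1, -2.53 for Il6ra, -4.14 for Prkcb, -2.93 for Slc2a6, -2.49 for Tesc and -2.24 for Wdfy4. Within slides 1 and 2 the change in HE was -1.9 and -1.24 for Apln, -2.26 and -2.02 for Gja4, 2.3 and 3.25 for Prkcb, and 0.74 and 1.46 for Slc2a6. These values come from arrays that also made the calls. The myeloid arrays lay on a single slide, so that their change could not be read by slide.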

How the results depend on the processing

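The 155 called genes taken by the rule for named genes or added later kept the sign of their interaction term in each of the 32 alternatives that tested them. Of the 155, 69 were called in each alternative that tested them. Some of these genes, such as Apln, were tested in 31 of the 32. Of the 15 such genes that were not called, 9 were called in some alternative, and the term of Runx1t1 stayed between 0.45 and 1.08 with single arrays left out. Cebpb, Runx1 and Tek, which were not called, changed sign. Cebpb was -0.22 with the HE response within slide 2, and between -0.34 and 0.50 with single arrays left out (-0.08 without uninduced HE array 1, -0.34 without induced HE array 3 and -0.02 without induced myeloid array 3), and with the HE response within slide 1 Runx1 was 0.32 and Tek -0.0593. With single arrays left out, the number of called genes was 581 to 707, of which 343 to 459 were higher and 218 to 266 lower, 10 to 17 were called in opposite directions and 442 to 524 were measured in both cell types, and the counts were 18 to 21 for endothelial, 9 to 15 for matrix, 3 to 7 for erythroid and 4 to 7 for ITAM and Fc receptor genes. The threshold moved the counts most. At an adjusted P of at most 0.001 with a 2-fold change, 193 genes were called (121 higher, 72 lower, 1 in opposite directions and 151 measured in both), with 12 endothelial, 2 matrix, 2 erythroid and 1 ITAM gene. With a 2-fold change alone there were 1781 (1024, 757, 45 and 1265), with 29 matrix, 12 erythroid and 11 ITAM genes. An adjusted P of at most 0.05 gave 416 lower genes and 79 in opposite directions. With the HE response within slide 1 there were 391 (238, 153, 9 and 306), with 3 matrix, 3 erythroid and 1 ITAM gene, and within slide 2 there were 4 ITAM genes. Genes well above background on all 12 arrays gave 178 lower and 4 ITAM genes, and scaling to the 75th percentile gave 4 ITAM genes, with 53.8% of calls higher compared with 62.7%. The HE response within a slide was read from fewer arrays, and the cause of any of these moves was not tested. The replicate numbers were not taken as pairs, since the deviations of same-numbered arrays correlated at -0.0544, 0.694 and -0.0955 in HE and 0.212, -0.127 and -0.00665 in myeloid progenitors. In HE, uninduced array 1 correlated with induced array 3 at 0.387, and uninduced array 3 with induced array 1 at 0.449. All other HE pairs of unlike number were negative. The main fit ignored any such pairing. With the replicate number as a block 679 genes were called, of which 559 were among the 718. That block joins arrays of like number, so it cannot show the effect of pairing HE arrays 1 and 3 crosswise. Deviations from a group mean cancel within the group, which in part forces negative correlations. Signal near background on some arrays limits the called genes other than the 365 of 450 and 178 of 268 that were well above it on all 12.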
